A study of Mus musculus with 6 samples.

Results

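The let-7 precursors a to f and mir-98 are 10 of the 855 miRNA precursors measured in mouse retina, and they were taken by name: mmu-let-7a-1, mmu-let-7a-2, mmu-let-7b, mmu-let-7c-1, mmu-let-7c-2, mmu-let-7d, mmu-let-7e, mmu-let-7f-1, mmu-let-7f-2 and mmu-mir-98, written below without the species prefix. The retinas came from mice aged 4 weeks, of mixed C57BL/6J and SJL background, and their small RNAs were sequenced. All mice carried the floxed Dicer1 allele (Dicerfl/fl). The 3 cKO libraries came from mice that also carried iCre75, a Cre transgene driven in rod photoreceptors by an opsin promoter, and the 3 control libraries from littermates without it. Each library was made from a pool of 6 retinas, in which rods are mixed with every other retinal cell, so fewer cells of a type and less RNA per cell cannot be told apart.

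The let-7 miRNAs are conserved across animals. Their level climbs as cells leave the progenitor state, and the RNA-binding protein LIN28 blocks their maturation from the precursor hairpin in stem and early progenitor cells. In the developing retina they accumulate as progenitors age, and they repress growth and cell-cycle genes such as Hmga2, Myc and Ras family genes. Dicer cuts the hairpin to the mature miRNA, whose bases 2 to 8, the seed, choose the target mRNAs.

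The mature sequences are shown because the members differ by few bases, which bears on how far their values are separate. They are RefSeq's (build GRCm38.p6), read 5′ to 3′, with the seed in capitals:
let-7a-5p: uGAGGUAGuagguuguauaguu
let-7b-5p: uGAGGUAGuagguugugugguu
let-7c-5p: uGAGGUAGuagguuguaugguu
let-7d-5p: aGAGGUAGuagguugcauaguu
let-7e-5p: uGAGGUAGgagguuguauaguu
let-7f-5p: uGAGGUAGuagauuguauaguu
miR-98-5p: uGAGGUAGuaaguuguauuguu

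All 7 sequences are 22 bases long and share the seed. Counted from the 5′ end of let-7a, let-7c differs by A19G, let-7e by U9G and let-7f by G12A. Each of the other members differs from let-7a at 2 bases, let-7b by A17G and A19G, let-7d by U1A and U16C, and miR-98 by G11A and A19U. Sequences of let-7b and let-7c differ from each other at 1 base.

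The 10 hairpins lie at 6 loci. On chromosome 13 let-7a-1, let-7f-1 and let-7d span 2261 bases and overlap an exon of the long non-coding RNA 6720427I07Rik. On chromosome 15 let-7c-2 and let-7b span 801 bases and overlap an exon of the long non-coding RNA Lncppara. On chromosome X let-7f-2 and mir-98 span 976 bases inside an intron of Huwe1, a ubiquitin ligase gene. The remaining 3 members lie apart from each other, each near a miRNA of the miR-99/100 or miR-125 families: let-7a-2 on chromosome 9 in an intron of 3110039I08Rik, let-7c-1 on chromosome 16 in an intron of Mir99ahg, and let-7e on chromosome 17 in an intron of Spaca6. Loci and overlaps are from RefSeq and GENCODE M21 on GRCm38, while the deposited values rest on mm9, so they serve only to show which genes neighbour each other.

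Numbered copies of a let-7 hairpin carry the same mature miRNA in different surroundings. The copies of let-7a, at chr13:48538179-48538272 (minus strand) and chr9:41536716-41536811 (plus strand, GRCm38), show this, with the mature miRNA in capitals:
let-7a-1: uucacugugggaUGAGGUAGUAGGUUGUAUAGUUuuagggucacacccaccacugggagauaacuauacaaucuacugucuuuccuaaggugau
let-7a-2: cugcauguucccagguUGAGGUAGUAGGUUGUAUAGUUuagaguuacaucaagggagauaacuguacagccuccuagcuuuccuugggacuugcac

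Values are the authors' RPKM, in which reads are scaled to the length of the precursor and to the total of the library. Library totals worked out from them ran from 5480940 to 7478237 reads. The photoreceptor miRNA mir-182 took 54.7% ± 2.34 (SD, n = 3) of these reads in control and 30.2% ± 3.22 (SD, n = 3) in cKO libraries, and every RPKM value is relative to a total that holds it. Among the 461 precursors that averaged 10 RPKM or more, 69.4% rose and 1.74% fell in cKO retina as deposited (limma, Benjamini-Hochberg adjusted p below 0.05), with a median log2 fold change of 0.74. Marker lists for retina were detected, with summed RPKM of 7568210 to 7894240 in control and 4037710 to 4911540 in cKO libraries for mir-182, mir-183 and mir-96 of photoreceptors, and of 5129220 to 5530570 against 8326270 to 9094880 for 3 precursors of the inner-retinal miR-181 family. The photoreceptor sum was mostly mir-182, which averaged 7295950 RPKM in control and 4024510 in cKO libraries. Of these 3 photoreceptor precursors 2 fell and 0 rose as deposited by limma. Pan-neuronal mir-124 (3 copies) summed to 203586 to 291230 in control and 222199 to 265609 RPKM in cKO libraries. Of precursors from tissues that a dissection can carry along, mir-204 and mir-211 of the pigment epithelium summed to 655315 to 758334 against 1197360 to 1475670 RPKM, and 6 of blood and leukocytes to 18629 to 21893 against 30380 to 36666. The 3 of vessels summed to 18667 to 34997 against 41036 to 54676 RPKM, the 3 of lens and cornea to 2499 to 54376 against 25397 to 63458, and the 3 of muscle to 557 to 970 against 938 to 1466. No marker was listed at 0 in every library, and the part of these lists in the let-7 values was not tested. No value of Dicer1 mRNA was available to check the genotype labels, because mRNA was not analysed here. The labels name biological replicates without saying how mice were assigned to pools, so p-values measure the spread between these pools.

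All 10 members were among the abundant precursors of the retina, from place 18 (let-7f-2) to place 44 (let-7d) of 855 by mean RPKM. Their order by level was the same in 6 of 6 libraries: let-7f-2, let-7a-1, let-7a-2, let-7f-1, let-7c-1, let-7c-2, let-7e, let-7b, mir-98 and let-7d. Control means ran from 154341 ± 15848 RPKM for let-7f-2 to 30490 ± 2316 RPKM for let-7d (SD, n = 3 each). From let-7f-2 down to let-7f-1, and from let-7c-1 down to let-7e, neighbours in the order lay within 1 SD of each other. The step from let-7e at 110563 ± 12966 RPKM to let-7b at 56623 ± 3846 RPKM (SD, n = 3 each) was larger than either spread. The 7 precursors above it carry let-7a or a sequence 1 base away from it, and the 3 below it carry sequences 2 bases away. Outside the members let-7g, also 2 bases away from let-7a, stood at 122583 ± 14198 RPKM in control (SD, n = 3), between let-7f-1 and let-7c-1.

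**Figure D1:**
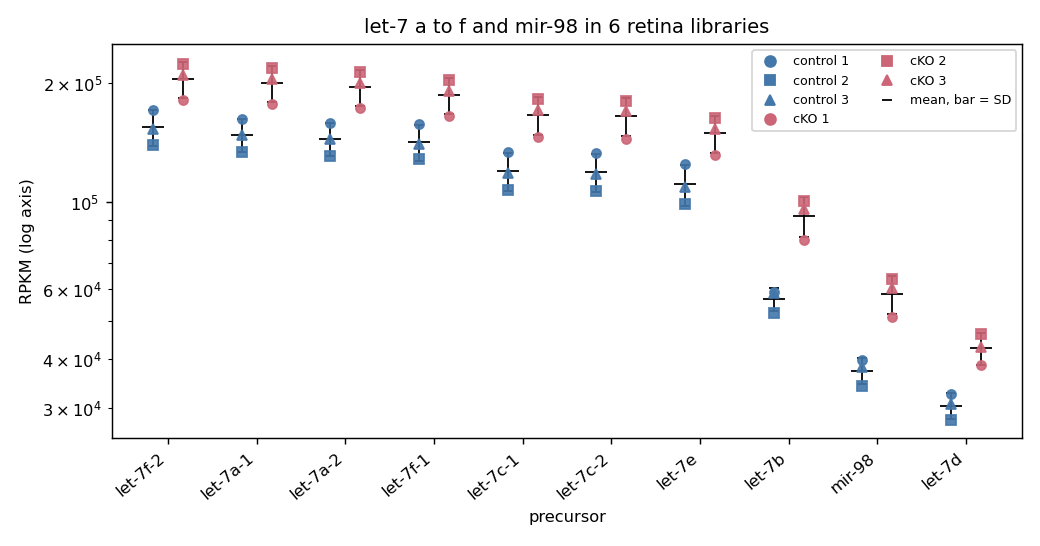
RPKM (log axis) of each member in the 6 libraries, with the group mean as a bar and the SD as error bar. In each member the 3 cKO libraries sit above the 3 control libraries as deposited, control 1 is the highest and control 2 the lowest control, and let-7b, mir-98 and let-7d stand below the other 7.

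How far the copies share their reads could be read from the values. For each member, RPKM times the hairpin length was a whole multiple of 1 step per library, taken as 1 read. In control 1 let-7a-1 held 114001 reads and let-7a-2 held 113722, and in cKO 2 they held 141461 and 141068. Reads at let-7a-1 beyond those at let-7a-2 made up 0.245% to 0.321% of the reads at let-7a-1 over the 6 libraries. For let-7c-2 beyond let-7c-1 this was 0.201% to 0.362%, and for let-7f-2 beyond let-7f-1 it was 1.67% to 2.49%. Copies of the same miRNA were therefore almost the same measurement, and the 10 members hold at most 7 distinct ones. Summed over all precursors, the reads exceeded the library total by a factor of 1.55 to 1.86, so a read can be counted at several precursors. The sources used here do not give the number of mismatches allowed. Reads at let-7a-1 and let-7e, whose mature sequences differ at 1 base, were 114001 and 86514 in control 1. Whether reads of 1 member were also counted at members a base away was not tested.

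The small remainder that separates the copies has its own pattern, chosen for description after its values were seen. It is given as RPM, the reads scaled to the library total. Reads at let-7a-1 beyond let-7a-2 were 37.3, 32.2 and 34.6 RPM in control 1 to 3 and 53.3, 56.8 and 54.6 RPM in cKO 1 to 3. Reads at let-7c-2 beyond let-7c-1 were 25.3, 23.4 and 26.5 RPM in control and 49.7, 55.2 and 46.5 in cKO libraries. Reads at let-7f-2 beyond let-7f-1 were 240, 193 and 218 RPM in control and 341, 460 and 393 in cKO libraries. In each of the 3 pairs all cKO libraries lay above all control libraries, as did those of 71.6% of the 461 precursors tested by their RPKM. The means were 1.58-, 2.02- and 1.83-fold higher in cKO libraries (exact two-sided permutation p = 0.1 and adjusted p = 0.1 for each, the smallest that 3 libraries against 3 allow).

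These remainders are relative to the library total and moved with it. With median-of-ratios scaling the folds were 0.95, 1.21 and 1.10 for let-7a, let-7c and let-7f, and with totals that leave out mir-182 reads they were 1.02, 1.31 and 1.18. The let-7c pair was the only pair of the 3 whose groups did not overlap under either scaling. The share of all precursors without overlap under these scalings was not computed. The table gives no value per hairpin arm. What the copies do not share includes the 3′ arm, shown here for the 3 pairs:
let-7a-1-3p: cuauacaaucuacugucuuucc
let-7c-2-3p: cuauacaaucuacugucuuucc
let-7a-2-3p: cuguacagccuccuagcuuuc
let-7c-1-3p: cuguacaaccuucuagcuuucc
let-7f-1-3p: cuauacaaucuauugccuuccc
let-7f-2-3p: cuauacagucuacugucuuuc

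The 3′ arms of let-7a-1 and let-7c-2, the copies with the remainder on their side, have the same letters, so the let-7a and let-7c remainders need not be separate measurements.

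**Figure D2:**
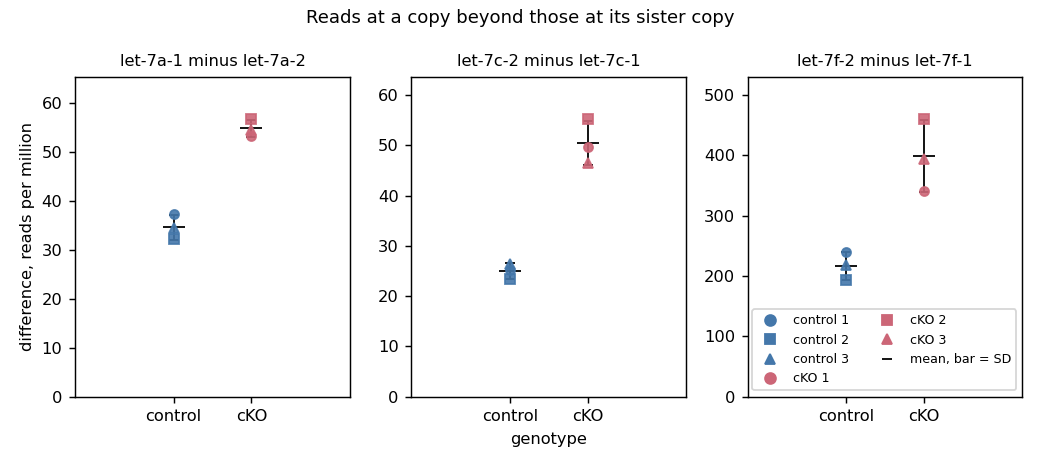
Reads per library total (RPM) counted at a copy beyond its sister copy, per library, with group mean and SD. The cKO libraries sit above the control libraries in each panel as deposited, at 53.3 to 56.8 against 32.2 to 37.3 for let-7a; with median-of-ratios scaling the let-7a fold was 0.95.

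In cKO retina each of the 10 members rose as deposited (limma adjusted p 0.0011 to 0.017), where 69.4% of all 461 precursors tested rose. In 10 of 10 every cKO library lay above every control library, as in 71.6% of the precursors tested. Log2 fold changes ran from 0.39 to 0.70 with a median of 0.45, and 10 of 10 lay below the median of all precursors tested, 0.74. Among the 73 other precursors that averaged 10000 RPKM or more the median was 0.641. Of the members, let-7b and mir-98 lay above it, at 0.695 and 0.645, and the other 8 below it. Place 257 (let-7b) to place 370 (let-7f-1) of 461, from the highest rise down, held the 10 members.

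The highest rise was that of let-7b, which in the mouse brain is known to repress cell-cycle genes of neural stem cells. It stood at 59091, 52191 and 58586 RPKM in control 1 to 3 and at 79786, 100293 and 95892 RPKM in cKO 1 to 3. It rose 1.62-fold as deposited (log2 0.70, SE 0.12; limma adjusted p = 0.0011). The lowest cKO value, in cKO 1, was well above the highest control value, in control 1.

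The next was mir-98, the let-7 family member with a name of its own and the intron neighbour of let-7f-2. It stood at 39689, 34145 and 38183 RPKM in control 1 to 3 and at 51198, 63711 and 60628 RPKM in cKO 1 to 3. It rose 1.56-fold as deposited (log2 0.64, SE 0.13; limma adjusted p = 0.0017), with a clear gap between the groups.

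The least abundant member let-7d, from the chromosome 13 cluster, stood at 32625, 28029 and 30816 RPKM in control and at 38541, 46298 and 42931 RPKM in cKO libraries. It rose 1.40-fold as deposited (log2 0.48, SE 0.12; limma adjusted p = 0.0064). For let-7c-1, a copy of a miRNA that is also encoded by let-7c-2, the values were 133680, 107227 and 118097 RPKM in control and 145334, 181537 and 170385 RPKM in cKO libraries. The groups were close there, since cKO 1 exceeded control 1 by less than the spread within either group, and the rise was 1.38-fold (log2 0.47, SE 0.13; limma adjusted p = 0.0084).

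The lowest rises were those of let-7a, let-7e and let-7f, and their gaps between groups were also small. For let-7a-1 the values were 162174, 133882 and 147125 RPKM in control and 176313, 217651 and 204282 RPKM in cKO libraries (1.35-fold; log2 0.43, SE 0.12; limma adjusted p = 0.010). For let-7e they were 124395, 98686 and 108608 RPKM in control and 131300, 163076 and 152436 RPKM in cKO libraries (1.35-fold; log2 0.43, SE 0.13; limma adjusted p = 0.014). For let-7f-1 they were 156756, 127852 and 139878 RPKM in control and 164909, 202947 and 190161 RPKM in cKO libraries (1.31-fold; log2 0.39, SE 0.12; limma adjusted p = 0.017). In these 3 members cKO 1 exceeded control 1 by less than the SD within either group. The copies let-7a-2, let-7c-2 and let-7f-2 stood at log2 fold changes of 0.43, 0.47 and 0.40.

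Leaving out 1 library ended calls of members and of other precursors alike. Without control 2, or without cKO 2, 5 of 10 members rose, beside 54.7% and 55.0% of all precursors tested in those fits. In both, let-7a-1, let-7a-2, let-7e, let-7f-1 and let-7f-2 did not pass (limma adjusted p 0.056 to 0.081). Without cKO 3, let-7f-1 and let-7f-2 did not pass (limma adjusted p = 0.058 and 0.052), where 60.0% of all precursors tested rose. Calls of let-7b, let-7c-1, let-7c-2, let-7d and mir-98 held without any single library. Control 2 was the lowest control and cKO 2 the highest cKO library in 10 of 10 members. Counting error was small beside this: let-7a-1 held 1.52% of the reads of control 1, with a Wilson 95% interval of 1.52% to 1.53% that covers counting error only.

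The direction of the members depended on how libraries were scaled. Median-of-ratios scaling divides each library by its median ratio to the mean library. After it 10 of 10 members were lower in cKO retina, at log2 fold changes of -0.34 to -0.036. By limma 0 of them fell after adjustment, where 9.98% of all precursors fell and 2.17% rose, and 5 of 10 had an unadjusted p below 0.05. With totals that leave out mir-182 reads 8 of 10 were lower, at -0.23 to 0.071, with 0 calls by limma (4.34% of all precursors rose, 7.81% fell) and 0 members at an unadjusted p below 0.05. With quantile normalization 4 of 10 were lower, at -0.16 to 0.39, again with 0 calls (3.04% of all precursors rose, 6.72% fell) and 1 member at an unadjusted p below 0.05. The medians of the members were -0.28, -0.17 and 0.070, beside 0.018, 0.12 and 0.041 over all precursors tested. Whether a let-7 miRNA was higher or lower per retina cannot be read from values relative to a total.

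As a share of summed RPKM the members made up 6.04%, 4.91% and 5.40% in control 1 to 3 and 5.88%, 6.96% and 6.53% in cKO 1 to 3. The groups overlapped, since control 1 exceeded cKO 1. With each mature sequence counted once the share was 3.37% ± 0.345 in control and 4.04% ± 0.343 in cKO libraries (SD, n = 3 each), also with overlap, a difference of 0.668 points in place of 1.01. Outside mir-182 the share was 8.74% ± 1.14 in control and 7.86% ± 0.489 in cKO libraries (SD, n = 3 each), again with overlap. Over the library total the groups did not overlap. The reads at the 10 members, in which a read can count more than once, came to 8.85% to 10.8% of the total in control and 11.9% to 14.7% in cKO libraries. By reads rather than RPKM the highest member was let-7a-1. Reads at let-7a-1 alone came to 1.39% ± 0.133 in control and 1.87% ± 0.198 in cKO libraries (SD, n = 3 each), also without overlap.

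**Figure D3:**
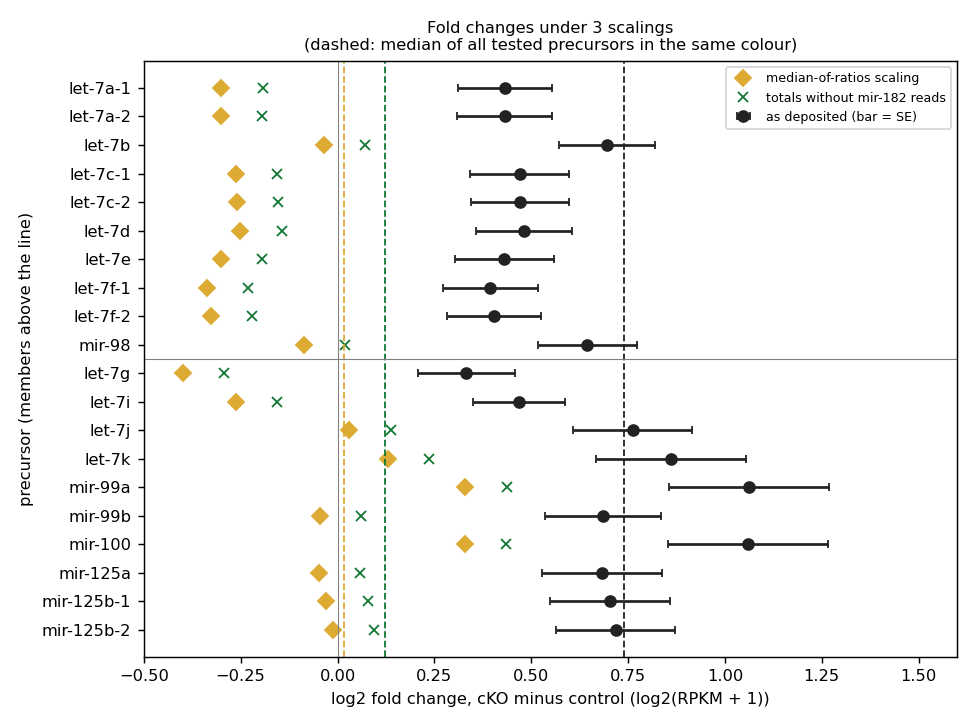
Log2 fold change (cKO minus control, on log2(RPKM + 1)) of the 10 members and of 10 related precursors as deposited (SE as bars), with median-of-ratios scaling and with totals without mir-182 reads; dashed lines are the medians of all precursors tested. As deposited all members lie right of 0 and left of the median of 0.74, and with median-of-ratios scaling all lie left of 0.

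Differences between members inside a library do not depend on its total. The level of each member was therefore set against the mean of the other 9 in the same library, on the log2(RPKM + 1) scale. For let-7b it was -0.87, -0.76 and -0.74 in control 1 to 3 and -0.58, -0.56 and -0.53 in cKO 1 to 3. The cKO mean was 0.23 higher, and the groups did not overlap (exact two-sided permutation p = 0.1, adjusted over the 10 members 0.143). For mir-98 it was -1.51, -1.44 and -1.42 in control and -1.29, -1.28 and -1.26 in cKO libraries, 0.18 higher, also without overlap and with the same exact permutation p.

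At the other end were the let-7f copies. For let-7f-1 the level against the other members was 0.70, 0.67 and 0.66 in control and 0.58, 0.57 and 0.57 in cKO libraries, a difference of -0.10 without overlap. Smaller differences of -0.060, -0.060 and -0.061, also without overlap, were measured for let-7a-1, let-7a-2 and let-7e, and of -0.091 for let-7f-2. The groups overlapped for let-7c-1, let-7c-2 and let-7d, at -0.017, -0.016 and -0.0049. So the groups were apart in 7 of 10 members, counted with both copies, with let-7b and mir-98 higher and let-7a, let-7e and let-7f lower in cKO libraries relative to the family. None of them can pass after adjustment, since the smallest exact p is 0.1. Over the 10 members the differences cancel by construction, so higher relative levels of let-7b and mir-98 lower those of the others. The higher and lower members are therefore not separate results. Other sets of precursors were not compared in this way, so no background share stands beside counts of members apart. Level and shift went together in part: the 5 members with a lower relative level in cKO libraries are among the 7 most abundant, and let-7b and mir-98 are among the 3 least abundant. With sister copies averaged to 1 value each, the groups were apart in 6 of 7 miRNAs. In that count let-7c no longer overlapped, at 0.75, 0.68 and 0.68 in control and 0.65, 0.66 and 0.66 in cKO libraries, a difference of -0.043. The difference of let-7e was then -0.090 in place of -0.061, and let-7d overlapped still. Without control 1, which was the library farthest from the cKO libraries for let-7b, mir-98 and let-7e, the differences were 0.19 for let-7b, 0.15 for mir-98 and -0.038 for let-7e.

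**Figure D4:**
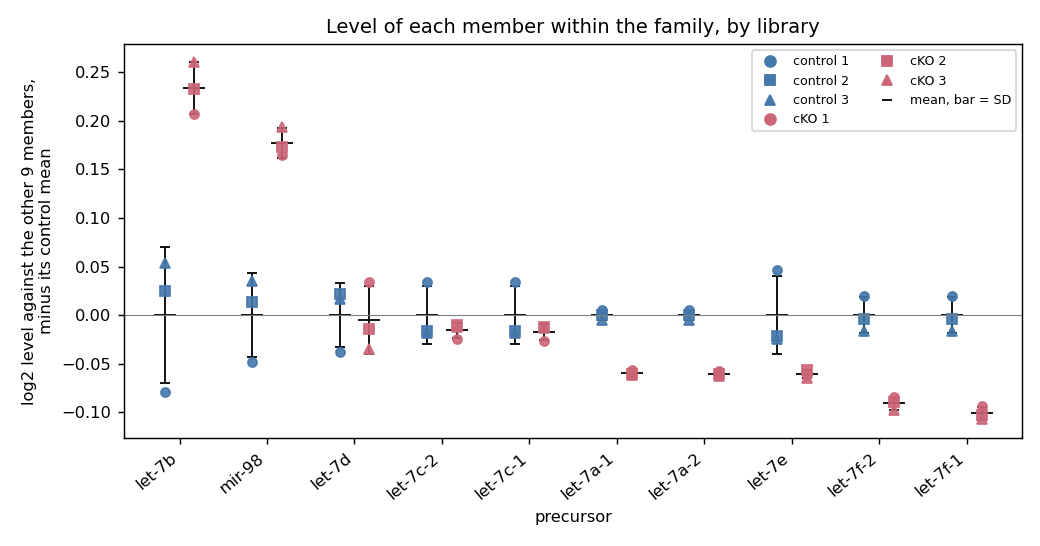
Log2 level of each member against the mean of the other 9 in the same library, minus its control mean, per library with group mean and SD. The cKO libraries of let-7b and mir-98 lie above the controls, by 0.23 and 0.18 on average, those of let-7a, let-7e and let-7f below, and those of let-7c and let-7d overlap them; with sister copies averaged let-7c did not overlap.

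Members were also set against the miRNAs of their own locus, which can be cut from the same primary transcript. In 10 pairs the log2 ratio of RPKM + 1 was compared, and 6 did not overlap between genotypes (exact two-sided permutation p = 0.1, adjusted over the 10 pairs 0.167, for each of the 6). Several pairs share a member or nearly identical copies, so the 6 are not separate results. Pairs of other precursors were not compared, so no background share stands beside this count. Within let-7 loci, let-7f-2 against mir-98 stood at 2.11, 2.03 and 2.00 in control and 1.82, 1.81 and 1.78 in cKO libraries, a difference of -0.24. The ratio of let-7b to let-7c-2 stood at -1.17, -1.03 and -0.999 in control and -0.86, -0.85 and -0.82 in cKO libraries, 0.22 higher. Against let-7d on chromosome 13, the differences were -0.049 for let-7a-1 and -0.087 for let-7f-1 (means of 2.27 against 2.23 and of 2.21 against 2.13). For let-7a-1 the groups nearly touched, at 2.255 in control 3 and 2.250 in cKO 3. Without control 1 the difference for let-7a-1 was -0.030. The ratios of let-7f-2 to mir-98 and of let-7b to let-7c-2 therefore differed by more than their spread between replicates. Copies of let-7a, let-7c and let-7f were almost the same measurement as their sister copies at other loci. Ratios with these copies thus cannot speak for 1 locus, and how much each locus contributed was not tested.

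The miR-99/100 and miR-125 neighbours gave wider spreads. The ratio of let-7c-1 to mir-99a was 5.08, 4.12 and 4.04 in control and 3.73, 4.02 and 3.72 in cKO libraries, and that of let-7a-2 to mir-100 was 5.67, 4.77 and 4.67 in control and 4.32, 4.61 and 4.29 in cKO libraries. Control 1 stood far above the other controls in both. The differences, cKO minus control, were -0.59 and -0.63, and without control 1 they were -0.26 and -0.31. Ratios to mir-125a, mir-125b-1, mir-125b-2 and mir-99b overlapped, with differences of -0.25 for let-7e to mir-125a, -0.27 for let-7a-2 to mir-125b-1, -0.25 for let-7c-1 to mir-125b-2 and -0.26 for let-7e to mir-99b (exact two-sided permutation p 0.2 to 0.6). Without control 1 those 4 differences shrank to -0.0088, -0.059, -0.019 and -0.010. In control 1 the members were at their highest control level while mir-99a, at 3944 RPKM against 6152 and 7175 in control 2 and 3, was at its lowest.

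**Figure D5:**
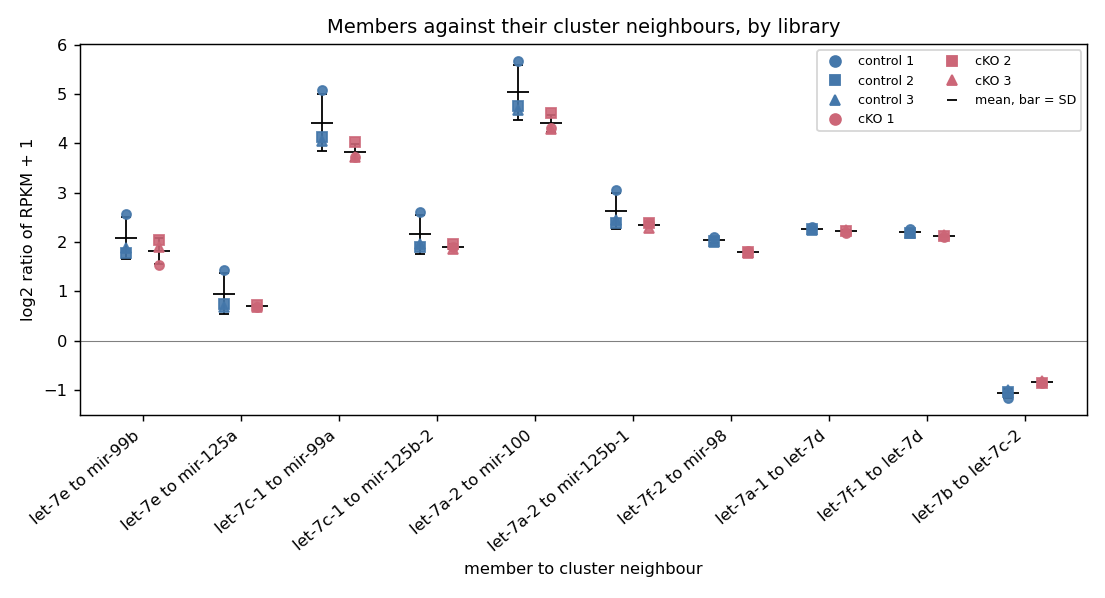
Log2 ratio of RPKM + 1 of members to neighbours of their locus, per library, with group mean and SD. Control 1 stands above the other controls in the 6 pairs with miR-99/100 or miR-125 neighbours, and let-7f-2 to mir-98 and let-7b to let-7c-2 part the genotypes with little spread.

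The related list, chosen with earlier results known, holds the other let-7 precursors g, i, j and k and the neighbours mir-99a, mir-99b, mir-100, mir-125a, mir-125b-1 and mir-125b-2. As deposited 10 of 10 rose, beside 69.4% of all precursors tested, with a median log2 fold change of 0.71, and with median-of-ratios scaling 0 rose or fell by limma (2 at an unadjusted p below 0.05). The abundant let-7g had the smallest rise, 1.26-fold (log2 0.33, SE 0.13; limma adjusted p = 0.036), with overlapping groups at 138019, 110082 and 119647 RPKM in control and 137610, 167872 and 157162 RPKM in cKO libraries. Leaving out any library but control 1 or cKO 1 ended its call (adjusted p 0.083 to 0.15). Of the neighbours, mir-125a rose 1.61-fold, mir-125b-2 1.65-fold and mir-99b 1.61-fold as deposited, and at log2 fold changes of -0.049, -0.013 and -0.046 they did not pass with median-of-ratios scaling. The less abundant let-7i stood at 0.47 as deposited and -0.26 with that scaling. The near-identical mir-99a and mir-100 had the highest rises of the list, at 1.06 each, and stood at 0.33 each, not passing, with that scaling.

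By the likeness of their profile over the 6 libraries, the precursors nearest to the mean of the 10 members were mir-128-1, mir-128-2, mir-1843b, mir-1843a and mir-671. Likeness was the root mean square difference of log2(RPKM + 1), each precursor centred on its own mean, among precursors outside both lists with a mean of at least 100 RPKM. It was 0.073 and 0.076 for the copies of mir-128, a miRNA abundant in neurons, 0.080 and 0.082 for mir-1843b and mir-1843a, and 0.10 for mir-671. Their log2 fold changes as deposited, 0.52, 0.52, 0.46, 0.46 and 0.63, fell in the range of the members. Choosing them by likeness largely fixes this in advance. The same precursors had values of -0.21, -0.22, -0.28, -0.27 and -0.10 after median-of-ratios scaling.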

How the data were processed

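The authors deposited RPKM values (column names in the file header) for 855 precursors in 6 libraries. Per the labels' protocols, libraries were made with an adapter-ligation small RNA kit from 1 µg of RNA, with 11 rounds of PCR and gel selection, and read together in 1 single-end run of 50 bases. Per the submitters' processing notes Bowtie and mm9 were used; the sources used here give neither version, annotation nor handling of multiple matches.

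RPKM times hairpin length (RefSeq or GENCODE M21) was a whole multiple of 1 step per library in 100.0% of 3678 values, within 0.01 reads, which gave reads and library totals; for 39 precursors without a fitting annotated length the shortest length giving whole reads was taken. Using limma 3.58.1 (R 4.3.3), a linear model with trended empirical Bayes variances was fitted to log2(RPKM + 1) of the 461 precursors that averaged 10 RPKM or more, two-sided, with adjustment over all 461 and a threshold of 0.05. The log2(RPKM + 1) scale understates changes of low precursors. Levels within the family and ratios to neighbours used exact permutation tests (scipy 1.17.1), which cannot go below 0.1. The fit was checked on simulated counts with changes in both directions, larger than those of the members. They held no shift shared by most precursors, so the check does not cover the choice of scaling. Figures were drawn with matplotlib 3.10.9. Members, lists, tests and alternatives were chosen with earlier results of these data known. Named precursors are the 10 members, the related list, mir-182 and the 5 most alike. Alternatives covered pseudocount, filter, scaling, variance model, voom on recovered reads, summed copies, leave-one-out fits and a replicate block.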

Additional observations from a re-analysis of the deposited data

How the results depend on the processing

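Direction and calls depended on the scaling. With median-of-ratios scaling 0 members and 0 of the related list rose, the members' median was -0.28, and over all precursors 10 rose and 46 fell. With totals without mir-182 reads these were 0, 0, -0.17, 20 and 36, and with quantile normalization 0, 0, 0.070, 14 and 31. Log2 fold changes that turned negative with median-of-ratios scaling were -0.30 for let-7a-1, -0.30 for let-7a-2, -0.036 for let-7b, -0.26 for let-7c-1, -0.26 for let-7c-2, -0.25 for let-7d, -0.30 for let-7e, -0.34 for let-7f-1, -0.33 for let-7f-2, -0.087 for mir-98, -0.40 for let-7g, -0.26 for let-7i, -0.046 for mir-99b, -0.049 for mir-125a, -0.029 for mir-125b-1 and -0.013 for mir-125b-2. With totals without mir-182 reads they were -0.19 for let-7a-1, -0.19 for let-7a-2, -0.16 for let-7c-1, -0.15 for let-7c-2, -0.14 for let-7d, -0.19 for let-7e, -0.23 for let-7f-1, -0.22 for let-7f-2, -0.29 for let-7g and -0.16 for let-7i. With quantile normalization they were -0.013 for let-7a-1, -0.010 for let-7a-2, -0.025 for let-7f-1, -0.16 for let-7f-2 and -0.14 for let-7g. The cKO minus control difference of the members' share was 1.01 percentage points of summed RPKM, 0.668 with each mature sequence once, -0.87 outside mir-182, and 3.66 as reads at the members over the library total, where the groups did not overlap. Of the 3 copy pairs whose groups did not overlap as deposited, 1 remained apart under either other scaling, with no background share computed. Both scalings of the pairs were alternatives chosen after seeing the data. With a minimum mean of 100 RPKM 4 precursors fell. The other scalings remove all or part of a shift shared by most precursors. As deposited the members' median of 0.45 lay below the 0.74 of all precursors tested. Which scaling is nearer to levels per retina was not tested. Leaving out each library in turn, 5 to 10 members, 9 to 10 of the related list and 252 to 322 of all precursors rose, 0 members and 4 to 12 of all precursors fell, the members' median was 0.38 to 0.53, and the share difference was 0.74 to 1.30 points. The groups were then apart in 7 members, 6 to 8 neighbour pairs and 3 copy pairs. Groups that do not overlap cannot overlap with a library removed, so these counts could only stay or rise. With no variance trend 9 members rose, and let-7f-1 did not pass (adjusted p = 0.051). Same-numbered libraries had correlations of deviations of 0.187, 0.264 and 0.009, and differently numbered ones of -0.217 to 0.048. The labels name replicate numbers only, and whether these mark a pairing was not tested. With the replicate block 10 members rose, as did 338 of all precursors against 320 without it.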
